A study of Mus musculus with 6 samples.

Results

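The 90 probe sets described here measure the enzymes that make and break down cyclic AMP and cyclic GMP and the protein kinases that these messengers switch on. They were taken by gene symbol: every probe set with exactly 1 gene symbol in the platform annotation that names an adenylate cyclase (Adcy), a guanylate cyclase (Gucy), a phosphodiesterase (Pde and a digit), a catalytic or regulatory subunit of protein kinase A (Prkaca, Prkacb, Prkar) or a protein kinase G (Prkg1, Prkg2). They cover 45 genes and are 90 of 36701 probe sets without controls, with 34 on array design A, 33 on design B and 23 on design C. The phosphodiesterases are the largest group, with 42 probe sets for 21 genes. Adenylate cyclases have 16 probe sets for 9 genes, guanylate cyclases 10 for 6, protein kinase A regulatory subunits 8 for 4, catalytic subunits 5 for 2, and protein kinase G 4 for 2. The symbol rule also takes in 5 probe sets of Pde4dip, a phosphodiesterase-interacting scaffold protein that is not itself a phosphodiesterase and is given apart.

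Mice of strain C57BL/6, male and aged 11 to 18 weeks, gave deep cerebellar nuclei centred on the anterior interpositus nucleus, on the side of the left eyelid that had been fitted with wires. All mice were trained for 7 days, from 3 days after surgery, with tones lasting 352 ms and periorbital shocks lasting 100 ms. For paired training the shock began 252 ms into the tone and ended with it, which is delay eyeblink conditioning, and in the unpaired group tones and shocks came apart in a pseudorandom order, so that both groups had the surgery, the tones and the shocks. Tissue was taken with syringe needles within 10 to 30 min, and 10 to 15 nuclei were pooled for an RNA sample. Each group has 1 array on each of the 3 designs, 6 arrays in all, so differences carry neither a replicate check nor a p-value, and the number of arrays limits the precision. Values are log2 signals, and a difference is always paired minus unpaired on the log2 scale. "Kept" probe sets are those whose mean signal lies at or above the median of their design, and the 2 sizes of difference counted are 0.32 on the log2 scale, called the smaller size, and 1.5-fold (0.58).

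Cyclic AMP is made by adenylate cyclases, which receptors drive or brake through G proteins and which in some isoforms also answer to calcium and calmodulin. Cyclic GMP is made by soluble guanylate cyclase, the receptor for nitric oxide, and by membrane guanylate cyclases. Phosphodiesterases end both signals, and protein kinase A and protein kinase G carry them on by phosphorylating other proteins. In the cerebellum these pathways are known for their part in plasticity at synapses onto Purkinje cells, whose axons inhibit the neurons of the deep nuclei.

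As a check of the tissue, 5 of 8 listed markers of deep nuclear projection neurons were kept, with a median rank of their probe sets at the 93.7th percentile, while Tbr1 and Lhx9 lay at the floor on both arrays. Markers of neighbouring cells were present as well: 6 of 6 oligodendrocyte markers on the arrays, 5 of 6 Purkinje cell markers and 5 of 7 granule cell markers were kept. The tissue therefore held RNA of several cell types. In such bulk RNA, fewer cells of a type and less RNA per cell cannot be told apart.

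The promoters of 3 of these genes are shown because Adcy1 had the largest difference among kept probe sets, Adcy9 was lower on both of its probe sets, and Prkar1a has, in 1 of its 6 windows, the only full cyclic AMP response element among the promoter windows of these genes. Each run is the 250 bases before an annotated transcript start in RefSeq (GRCm38.p6), read 5′ to 3′ on the gene's strand. Capitals mark TGACG, the core of the cyclic AMP response element TGACGTCA that CREB binds, or its reverse complement CGTCA.
Adcy1, plus strand, chr11:7063183-7063432: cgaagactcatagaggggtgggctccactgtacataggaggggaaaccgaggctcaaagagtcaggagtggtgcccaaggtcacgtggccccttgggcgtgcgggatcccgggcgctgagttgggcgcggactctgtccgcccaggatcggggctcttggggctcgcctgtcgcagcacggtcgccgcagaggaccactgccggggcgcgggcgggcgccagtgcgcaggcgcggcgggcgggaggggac
Adcy9, minus strand, chr16:4420499-4420748: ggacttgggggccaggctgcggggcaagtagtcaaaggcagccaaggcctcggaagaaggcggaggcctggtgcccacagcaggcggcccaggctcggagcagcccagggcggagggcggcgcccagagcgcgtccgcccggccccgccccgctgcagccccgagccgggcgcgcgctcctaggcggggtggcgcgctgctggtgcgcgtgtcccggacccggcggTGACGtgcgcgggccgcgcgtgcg
Prkar1a, plus strand, chr11:109650699-109650948: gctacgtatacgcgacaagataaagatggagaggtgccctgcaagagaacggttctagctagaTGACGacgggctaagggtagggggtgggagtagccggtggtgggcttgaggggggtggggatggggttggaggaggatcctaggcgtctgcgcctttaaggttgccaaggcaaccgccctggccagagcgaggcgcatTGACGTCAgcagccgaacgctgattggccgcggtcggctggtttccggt
In the Prkar1a window TGACGTCA starts 49 bases before the transcript start, and TGACG stands alone 187 bases before it. The Adcy9 window has TGACG 24 bases before the start, and these letters are not in the Adcy1 window on either strand. The promoter table matched 35 of the 45 genes with 75 windows. TGACGTCA was in 1 window of the 75 (1.33%), against 1.55% of all 32851 windows, and TGACG on either strand, full elements included, in 15 windows (20%) against 17.8%. These shares lie near those of all promoters.

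Where these transcripts stand in the tissue was asked first, by the rank of each probe set's mean signal within its design. The 90 probe sets spread over the whole range with a median at the 50.8th percentile, and 47 of them (52.2%) were kept, against 50% of all probe sets. At or above the 90th percentile lay 12 of 90 (13.3%), where 10% of all probe sets lie, and 9 (10.0%) lay at or above the 95th, where 5.01% lie. The share at the 90th differed by design, with 6 of 34 (17.6%) on A, 2 of 33 (6.06%) on B and 4 of 23 (17.4%) on C. Some genes count more than once, and all probe sets include 6846 without a gene symbol. Protein kinase A subunits gave 7 of those 12. Of the 12, 4 carry a letter suffix in their name (f or i), unlike plain probe sets: 1 of Prkaca, 1 of Pde2a and 2 of Adcy5. Suffixed probe sets call for more caution, and the letters do not all mean the same. A rank joins the amount of transcript with how well a probe set binds it, so ranks of different genes describe the arrays and do not order the transcripts. On the unpaired and the paired array taken alone, the rank of a probe set moved by a median of 2.04 percentile points, and by 13.6 points in the extreme case.

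**Figure D1:**
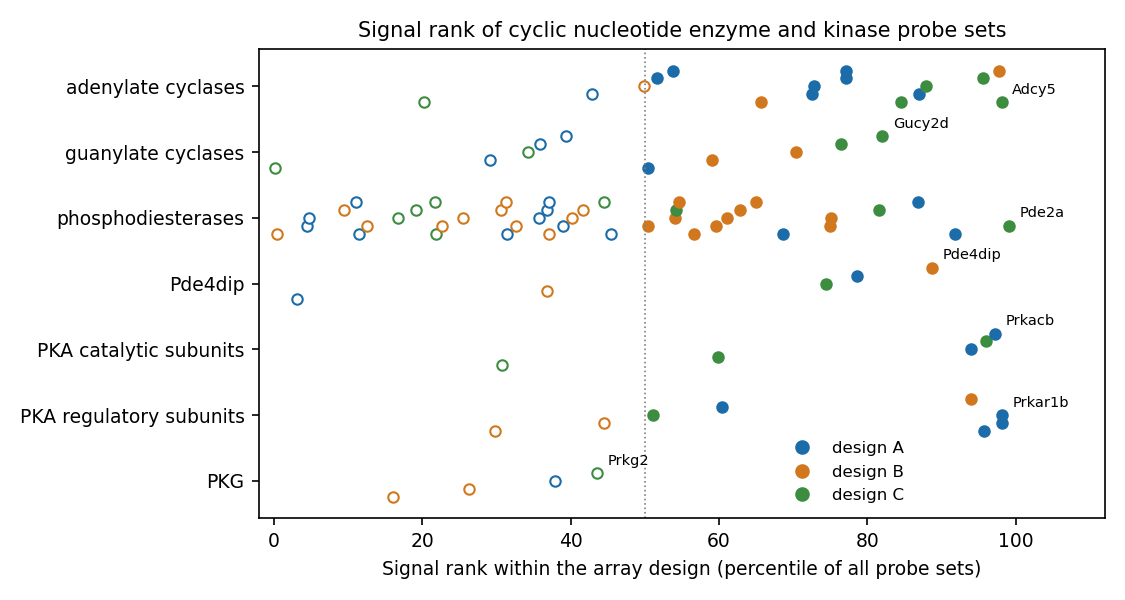
Signal rank of each of the 90 probe sets (points) within its array design, as a percentile of all probe sets of that design, by enzyme group and coloured by design. Filled points are the 47 kept probe sets, open points lie below the median (dotted line), and the named gene is the one with the highest rank of its group; protein kinase A subunits gather at the right and all 4 protein kinase G probe sets lie left of the line.

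Protein kinase A subunits held the highest ranks as a group, with a median at the 94.0th percentile over their 13 probe sets. Prkar1a and Prkar1b, which encode type I regulatory subunits that hold the kinase inactive until cyclic AMP binds, reached the 98.1st and 98.2nd percentile of design A. Prkacb, a catalytic subunit, reached the 97.3rd, and Prkaca, the other catalytic subunit, the 94.0th on design A and the 96.0th on design C. Further probe sets of these catalytic genes on design C ranked lower, Prkaca at the 59.9th and Prkacb at the 30.7th percentile. Prkar2a, a type II regulatory subunit, stood at the 94.0th percentile of design B, the 60.4th of design A and the 51.2nd of design C. Prkar2b, the type II subunit prominent in forebrain and fat, was below the median with both of its probe sets, at the 29.7th and 44.5th percentile. Protein kinase G, the target of cyclic GMP that is well known from Purkinje cells, had no kept probe set. Its Prkg1 probe set was at the 16.1st percentile, under the floor on both arrays, and Prkg2 lay between the 26.3rd and the 43.5th percentile on the 3 designs.

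Among the cyclases, Adcy5, an isoform that calcium inhibits, reached the 98.1st percentile on design C with a suffixed probe set, while its plain probe sets lay at the 87.9th (design C) and the 49.9th (design B). Adcy1, which calcium and calmodulin stimulate, reached the 97.8th on design B. Adcy2, stimulated by G protein beta-gamma subunits, had the 87.0th percentile on design A, and Adcy8, the other isoform stimulated by calcium and calmodulin, the 77.1st. Adcy7 was the only adenylate cyclase gene with no kept probe set. Guanylate cyclases ranked lower, with a median at the 44.8th percentile and none at or above the 90th. The soluble subunits Gucy1b1 and Gucy1a1 reached the 70.4th and the 59.1st percentile on design B. Gucy2d, known as a membrane cyclase of olfactory neurons, had the top rank of its group, the 82.0th percentile on design C, from a probe set whose target was not checked against sequence. Gucy2c, the guanylin receptor of the gut, and Gucy1a2 stayed below the median.

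Phosphodiesterase probe sets had a median at the 38.0th percentile, and 12 of the 21 genes had a kept probe set. Pde2a, which cyclic GMP stimulates and which breaks down both messengers, had the highest rank of all 90 probe sets, the 99.1st percentile on design C, from a suffixed probe set. Its plain probe sets, on design B, stood at the 41.7th and the 54.7th. Next came Pde6d, a prenyl-binding protein first found with the photoreceptor enzyme, at the 91.9th percentile, and Pde1b, a calcium- and calmodulin-dependent isoform, at the 86.8th. Pde7b and Pde4d, which act on cyclic AMP, reached the 81.6th and the 75.1st. Below the median with every probe set were Pde1c, Pde3a, Pde5a, Pde6a, Pde6b, Pde6g, Pde9a, Pde10a and Pde12. Of these, Pde6a, Pde6b and Pde6g belong to the photoreceptor enzyme, Pde10a is typical of the striatum, Pde5a and Pde9a are specific for cyclic GMP, and Pde12 is a mitochondrial RNA-degrading enzyme that shares only the name. In all, 15 of the 45 genes had no kept probe set, and 14 of the 90 probe sets were under the floor on both arrays and have no difference. The scaffold Pde4dip was kept on each design, at the 78.6th, 88.8th and 74.4th percentile of A, B and C.

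The comparison of paired with unpaired training asked which of these transcripts differed between the pools. Paired training went with a higher Adcy1 signal on both kept probe sets and a lower Adcy9 signal on both. Medians of the groups ran from -0.052 for catalytic to 0.14 for regulatory subunits of protein kinase A, and neither sign was stable, as given below. Of the 47 kept probe sets, 25 were higher and 22 lower in the paired pool, with a median difference of 0.0033, against 50% above 0 and a median of 0 over all 18351 kept probe sets. At or past 1.5-fold was 1 of 47, a probe set of Adcy1, where the share over all kept probe sets was 0.681% (0.349% higher and 0.332% lower). At or past the smaller size were 8 of 47 (17.0%), 5 of them higher and 3 lower, where the share over all kept probe sets was 9.75% (4.68% higher and 5.07% lower). The 8 came from 7 genes and all designs, 3 from A, 3 from B and 2 from C. The SD of the difference was 0.22 over the 47 and 0.19 over all kept probe sets. The count past the smaller size was 4 of 30 when each gene was read by its probe set of highest rank. The 43 probe sets below the median signal are not in these counts.

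**Figure D2:**
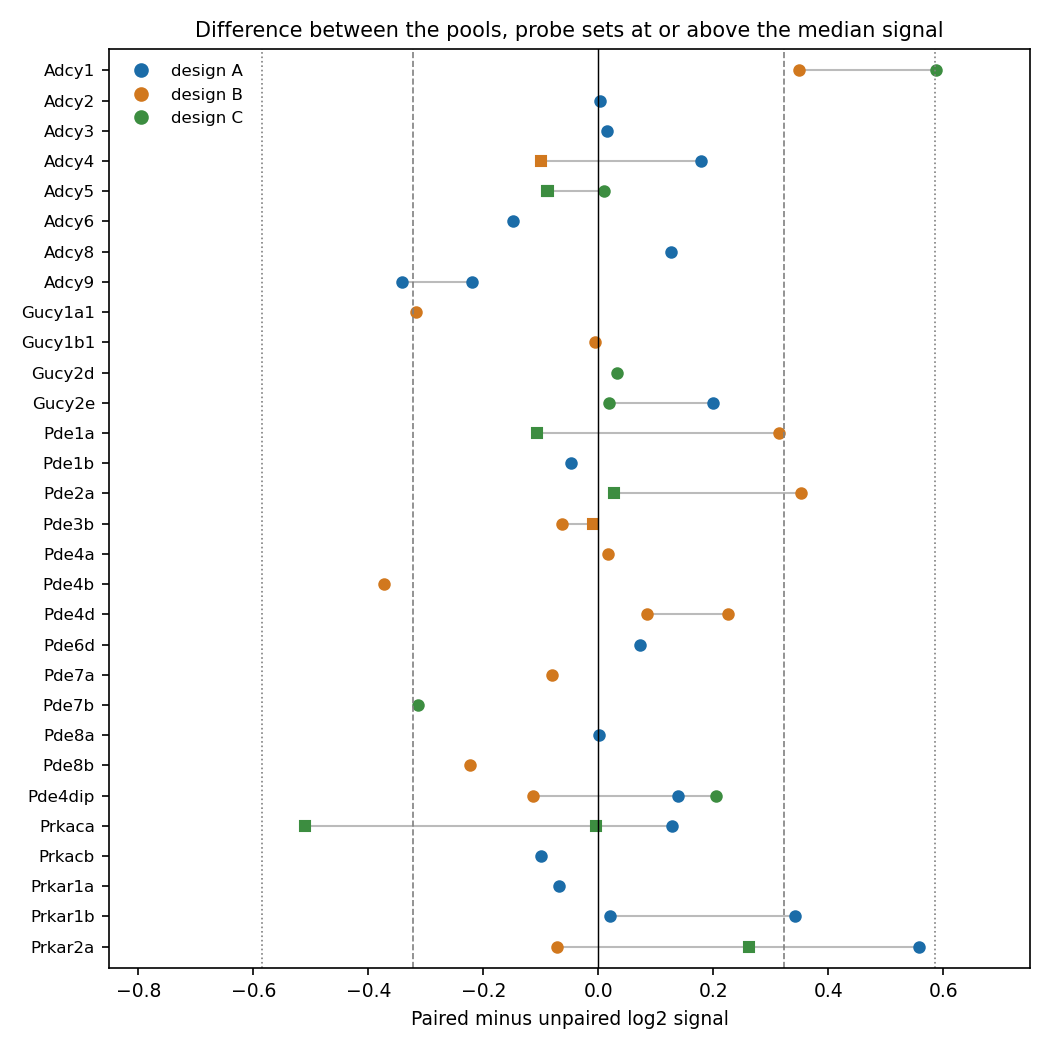
Paired minus unpaired log2 signal of the 47 kept probe sets by gene, coloured by array design. Circles are plain probe sets and squares are those whose name carries a letter suffix. Grey bars join probe sets of a gene, and dashed and dotted lines mark the smaller size (0.32) and 1.5-fold. Adcy1 lies right of the dashed line with both points, and Prkaca and Prkar2a have the widest bars.

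**Figure D3:**
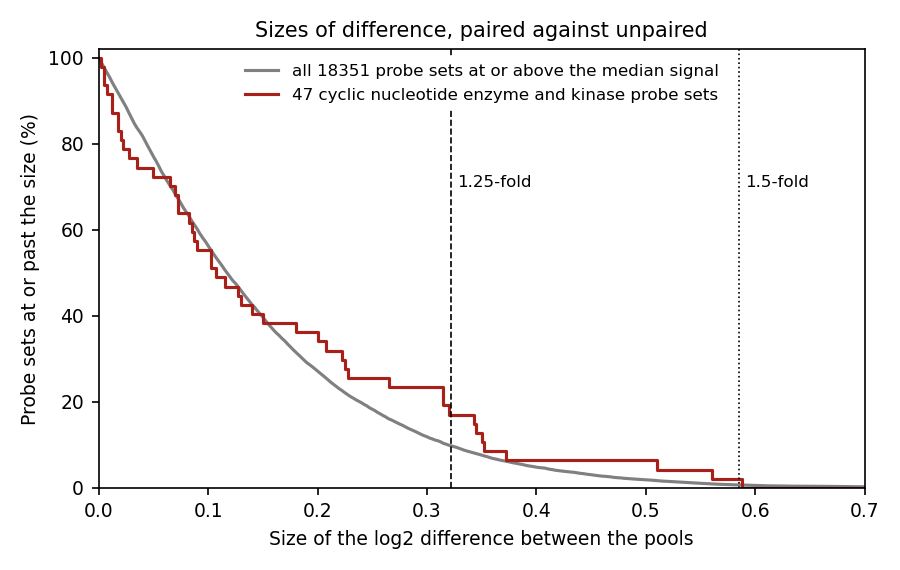
Share of probe sets (y axis, percent) whose difference between the pools is at least the size on the x axis (absolute log2 difference), for the 47 kept probe sets of these genes (red steps) and all 18351 kept probe sets (grey). The red steps lie above the grey line at the smaller size (0.32), 17.0% against 9.75%.

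Adenylate cyclases make cyclic AMP. On design B the Adcy1 signals were 7.84 (unpaired) and 8.19 (paired), a difference of 0.35 (1.27-fold). On design C another Adcy1 probe set gave 5.22 and 5.81, a difference of 0.59. The paired pool was the higher on both designs, which share no array but may share the RNA. The design C value lies at the edge of the 1.5-fold size: without scaling it was 0.580, under 0.585, and no member then passed. A further Adcy1 probe set on design C, at the 20.2nd percentile, was under the floor on both arrays.

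Adcy1 is a gene of cerebellar granule cells among other neurons, and markers of these cells also differed between the pools. For the 5 kept granule markers all 9 kept probe sets lay above 0, with a median of 0.38 and a range of 0.00099 to 1.04; 2 further listed markers on the arrays were below the median signal, and none was at the floor throughout. Summed linear signal of the granule markers ran from 22.9 to 278 over the 3 designs in the unpaired and from 23.8 to 388 in the paired pool. For Purkinje cell markers 6 of 10 kept probe sets were higher, with a median of 0.091 and a range of -0.24 to 0.61. By gene, 4 of the 5 kept had a mean above 0, and Pvalb was lower, at -0.056, -0.24 and -0.060. Summed signals were 366 to 7061 unpaired and 372 to 6847 paired over the designs, with Pcp4 at the floor. The upper sums come mostly from 1 Pvalb probe set of design A (12.53 unpaired, 12.47 paired). Projection neurons of the deep nuclei had 7 of 9 kept marker probe sets lower, with a median of -0.050 and a range of -0.33 to 0.85. The highest was a Slc17a6 probe set of design B, while those of Slc17a6 on design C gave -0.083 and -0.0025. Lower as well were 12 of 15 for oligodendrocytes (median -0.084) and 4 of 6 for endothelial and mural cells (median -0.20). Astrocyte markers were divided, 6 higher and 6 lower (median -0.011), microglial markers were higher in 4 of 5 (median 0.060) and choroid plexus markers in 2 of 3 (median 0.096). The part of these cells in the Adcy1 difference, or in any other difference given here, was not tested.

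Adcy9, a widely expressed cyclase with little response to forskolin, went the other way on design A. Its signals were 6.73 unpaired and 6.38 paired on the first probe set, a difference of -0.34, and 6.36 and 6.14 on the other, a difference of -0.22. Both are plain probe sets and are lower in the paired pool by a similar amount. Adcy4, which G protein beta-gamma subunits stimulate, had 4.83 and 5.01 on design A, a difference of 0.18, but 5.16 and 5.06 on design B, a difference of -0.10. Its probe sets thus point in opposite directions, and that of design B is a suffixed one. For Adcy5 the signals were 7.90 and 7.81 on its brightest probe set, a suffixed one, a difference of -0.089. Another suffixed Adcy5 probe set gave -0.087, while a plain one gave 0.010. The remaining kept cyclases were Adcy2 at 0.0033, Adcy3, the isoform of neuronal cilia, at 0.016, Adcy8 at 0.13 and Adcy6, which calcium inhibits, at -0.15. Over the 13 kept adenylate cyclase probe sets the median was 0.0033, with 7 higher and 6 lower and 3 at or past the smaller size.

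Guanylate cyclases make cyclic GMP, and none of their 5 kept probe sets reached the smaller size. Gucy1a1, the alpha subunit of the nitric oxide receptor, came closest, with 4.94 unpaired and 4.63 paired on design B, a difference of -0.318 that lay just under the 0.322 counted. Its partner Gucy1b1, the beta subunit, had 5.37 in both pools on design B, a difference of -0.0059, and -0.31 on a design A probe set below the median signal. The membrane cyclase Gucy2d had 5.25 and 5.28. Gucy2e, a photoreceptor cyclase, had 4.74 and 4.94 on design A, a difference of 0.20, and 4.71 and 4.73 on design C, a difference of 0.019. The group's median was 0.019, with 3 probe sets higher and 2 lower.

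Phosphodiesterases split evenly, with 8 of 16 kept probe sets higher and 8 lower, a median of -0.0042 and 1 at or past the smaller size in each direction. Pde2a was the higher one: on design B its signal was 4.38 unpaired and 4.74 paired, a difference of 0.35, and a dimmer Pde2a probe set of the same design gave 3.79 and 4.08, a difference of 0.29. The probe set of very high rank on design C had 8.62 and 8.65, a difference of 0.027. Pde2a was thus higher in the paired pool on all 3 probe sets, by about the same amount on design B and by little on design C.

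Pde4b, one of the cyclic AMP-specific enzymes, was the lower one, with 5.83 unpaired and 5.46 paired on design B, a difference of -0.37. A Pde4b probe set on design A, below the median signal, had 3.96 and 4.27, a difference of 0.31, so the direction differed between designs. Its relative Pde4d was higher on both kept probe sets, by 0.23 and 0.084, and Pde4a stood at 0.017. The calcium- and calmodulin-dependent enzyme Pde1a had 4.72 and 5.03 on design B, a difference of 0.31. On design C a suffixed Pde1a probe set had 3.27 and 3.16, a difference of -0.11. Pde1b, of the same class, was at -0.048. The cyclic AMP-specific Pde7b had -0.31, Pde8b -0.22, Pde7a -0.081 and Pde8a 0.0018, so that 3 of these 4 genes were lower, none by the smaller size. Pde3b, which cyclic GMP inhibits, was at -0.010 and -0.064, and Pde6d at 0.072. Pde4dip was 0.14 higher on design A (6.59 and 6.73), 0.21 higher on design C (4.45 and 4.65) while on design B the signals were 6.69 and 6.57, a difference of -0.11.

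Protein kinase A subunits, which carry the cyclic AMP signal, had the widest differences of the groups, with an SD of 0.29 over 10 kept probe sets against 0.19 over all kept probe sets, and with 5 higher and 5 lower. Prkaca on design C had 7.39 unpaired and 6.88 paired on one probe set, a difference of -0.51 (1.42-fold), the lowest value of the 47. Its other probe set on that design had 3.55 in both pools, a difference of -0.0038, and on design A the signals were 8.26 and 8.39, a difference of 0.13. Both design C probe sets carry a letter suffix, f on the first and r on the other. The plain Prkaca probe set of design A was slightly higher in the paired pool. Prkacb, read by a plain probe set on design A, had 9.23 and 9.12, a difference of -0.10.

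Among the regulatory subunits, Prkar2a was also divided. On design A its signal was 5.19 unpaired and 5.74 paired, a difference of 0.56 (1.47-fold). The probe set of design B, the highest-ranked of the 3 Prkar2a probe sets, gave 7.25 and 7.17, a difference of -0.072. That of design C, a suffixed one, gave 2.94 and 3.21, a difference of 0.26. Thus 2 of the 3 were higher in the paired pool, and the one of highest rank was not. Prkar1b had 8.54 and 8.88 on one probe set of design A, a difference of 0.34, and 9.61 and 9.64 on the other, a difference of 0.021. Prkar1a stood at -0.069, with 9.62 and 9.55. The median over the 6 kept regulatory probe sets was 0.14, and over the 4 catalytic ones -0.052. Neither sign was stable. The regulatory median was -0.069 with the probe set of highest rank per gene and -0.024 over the 4 probe sets from the 75th signal percentile up, where the median over all probe sets was -0.012. Without suffixed probe sets the catalytic median was 0.014, over 2 probe sets, and the regulatory median 0.021, over 5.

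**Figure D4:**
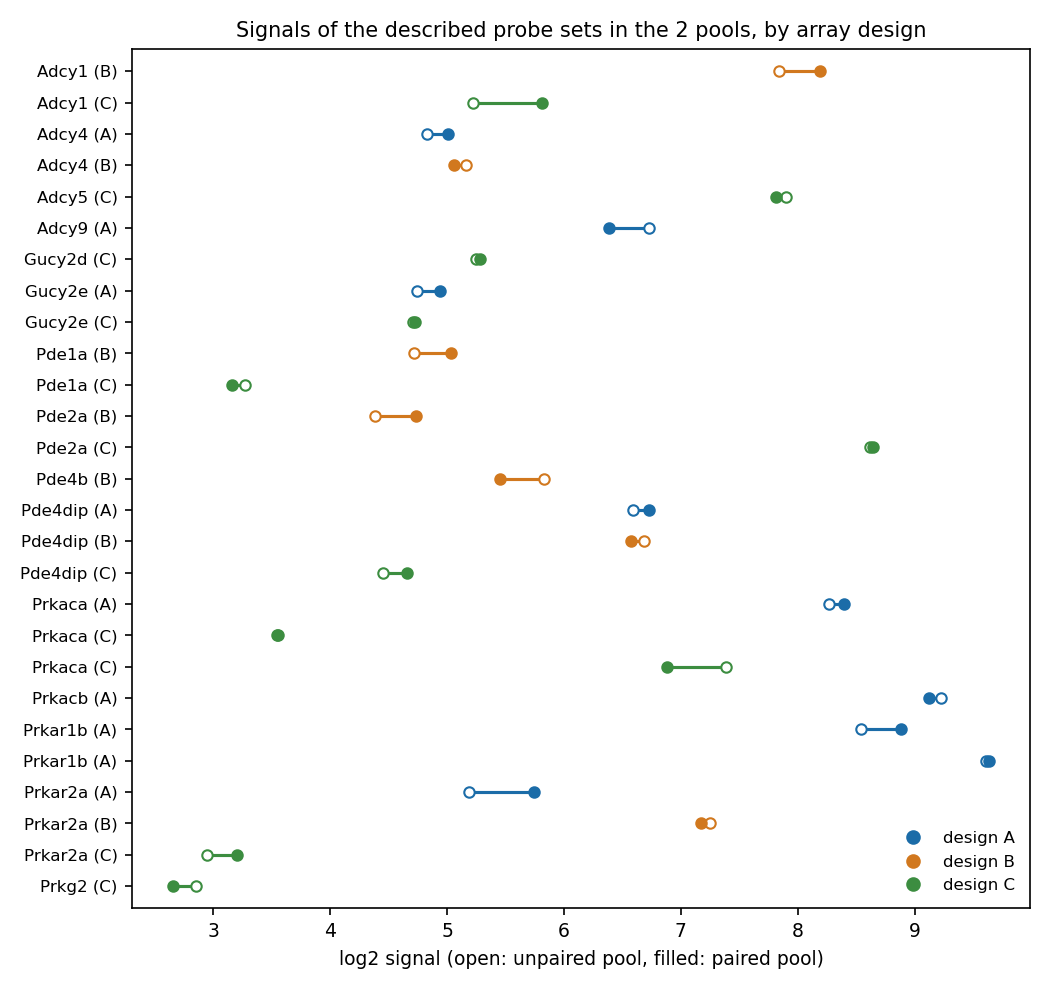
log2 signal of the 27 described probe sets in the unpaired (open circles) and the paired pool (filled circles), 1 array each, with the array design in brackets after the gene and in colour. The pairs lie farthest apart for Adcy1 on design C, Prkar2a on design A and Prkaca on design C, at 0.59, 0.56 and -0.51.

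No kept probe set of protein kinase G was there to compare. The Prkg2 probe set of highest rank had 2.85 unpaired and 2.65 paired on design C, a difference of -0.19, and the others were at -0.023 and 0.0075. Of the 43 probe sets below the median signal, 4 (9.30%) were at or past the smaller size, against 5.86% of all such probe sets. They were Pde10a at 0.45, Pde1a on a suffixed probe set of design A at 0.37, Gucy2c at 0.32 and Pde6g at -0.38. Pde10a, Gucy2c and Pde6g have no kept probe set to set beside these values. The kept Pde1a probe sets gave 0.31 on design B and -0.11 on design C.

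Whether a gene's probe sets shared a direction could be read for 13 genes with several kept probe sets. In 7 of them (53.8%) all kept probe sets pointed one way, against 42.1% of the 3437 such genes on the arrays: Adcy1, Pde2a, Pde4d, Prkar1b and Gucy2e higher in the paired pool, and Adcy9 and Pde3b lower. In Adcy4, Adcy5, Pde1a, Pde4dip, Prkaca and Prkar2a they pointed both ways. Prkaca and Prkar2a had the widest spans, 0.64 and 0.63 from the lowest to the highest value. Probe sets of a gene share the array on 1 design and may share the RNA across designs, and they are no replicates of the training. Adcy1 was the only one of the 13 whose kept probe sets were all at or past the smaller size.

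Other genes of the pathway were read from 3 lists. Among the G proteins, receptors and ligands upstream of the cyclases, 11 of 15 genes on the arrays were kept. Of their 24 kept probe sets none was higher by the smaller size and 1 was lower (4.17% in all, beside 9.75% over all kept probe sets), with a median of 0.020. The lower one was a suffixed probe set of Gnai2, an inhibitory G protein subunit, with 10.29 unpaired and 9.90 paired, a difference of -0.39. Other Gnai2 probe sets gave -0.050 and -0.070. Gnaz, a related subunit, had -0.316 and 0.011 on design B and 0.29 on design A, all under the 0.322 counted.

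Anchors and inhibitors of protein kinase A had 15 of 18 genes kept, with 2 of 22 kept probe sets higher and 2 lower at the smaller size (18.2% in all, beside 9.75%) and a median of -0.038. Map2, a dendritic microtubule protein that binds the regulatory subunit, had 5.40 and 6.01 on design A, a difference of 0.61, but 0.058 on a brighter probe set of design B. Akap2, an anchoring protein, had 6.00 and 5.40 on a suffixed probe set of design B, a difference of -0.60. Its plain probe sets gave 0.25 and -0.031. In both genes the large value stood on 1 probe set.

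Other sensors of cyclic nucleotides and targets of their kinases had 15 of 22 genes kept, with 5 of 24 kept probe sets higher and 2 lower at the smaller size and a median of 0.023. This share of 29.2% is to be read beside 9.75% over all kept probe sets. Hcn2, a pacemaker channel gated by cyclic AMP, accounts for 3 of the 7. It had 0.55 on a plain probe set of design C, and 0.35 and -0.42 on suffixed ones of design A. Hcn2 so gives no common direction. Crebbp, a coactivator of CREB, had 0.46 on design B and -0.36 on a suffixed probe set of design A. Ppp1r17, a protein kinase G substrate of Purkinje cells, had 4.68 and 5.08 on design A, a difference of 0.41, and 4.35 and 4.76 on design C, a difference of 0.42. It was the only one of these genes with all kept probe sets past the smaller size in 1 direction, and it was named after its values were seen. Ppp1r17 is also one of the listed Purkinje cell markers, whose part in its difference was not tested.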

How the data were processed

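The deposited values, 1 log2 signal per probe set and array in 3 tables with different probe sets, were read as they are. Base 2 is read from the values (1.40 to 12.53 without controls). How the authors summarized, background-corrected and normalized them is not given in the sources used here. Letters A, B and C in the labels were read as array designs.

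After 198 control probe sets were set aside, 29131 of 36701 probe sets had 1 gene symbol in the platform annotation, 724 several and 6846 none; all 90 described here matched the RefSeq gene table (GRCm38.p6). Within a design the paired array was shifted by 0.010, 0.0084 or 0.0067 (A, B, C) so that the median difference of the kept probe sets was 0. Signals under the 25th percentile were set to it, and probe sets with a mean signal at or above the median were kept (18351). Designs were never normalized together. The median log2 signal was 4.79 and 4.83 on A, 4.32 and 4.32 on B and 3.03 and 3.02 on C (unpaired, paired).

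Probe sets named were, in each group, that of highest rank, all kept ones at or past 0.32 and those of genes kept on several designs; other values printed were chosen after they were seen. Genes outside the family were named as the 2 largest of a list or as cell type markers. Ppp1r17 was named in addition, after its values were seen. The members and lists were chosen with earlier results of these data known. Alternatives were other scalings (loess span 0.3), floors and filters, single designs, only the top-ranked probe set of a gene, 1 value per gene, and no suffixed probe sets or Pde4dip. The steps were tested on simulated data with shifts larger than both sizes counted and noise smaller than the SD of the kept probe sets. That test does not cover differences of the sizes counted. Python 3.11.15, pandas 2.3.3 and statsmodels 0.14.6 were used.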

Additional observations from a re-analysis of the deposited data

How the results depend on the processing

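Another scaling (3 settings) or a floor at the median moved the differences of the described kept probe sets by at most 0.085 and turned no sign, in 104 comparisons; a filter, or leaving out the floor, cannot move a kept probe set that lies above the floor. The count at or past 1.5-fold was 0 without scaling, on design A or B alone and with only the top-ranked probe set of a gene. Top-ranked means the highest rank within its design, and such a probe set need not have the highest signal of the gene. The count past the smaller size (0.32) was 3 of 18, 3 of 16 and 2 of 13 on designs A, B and C. Beside it stand 9.27%, 10.9% and 9.03% of all kept probe sets there. With the top-ranked probe set it was 4 of 30. Those higher were 2, 2 and 1 by design (beside 4.19%, 5.82% and 3.99%). They were 8 of 90 with no filter (4.14%), 1 of 30 with the top-ranked probe set (4.68%) and 3 of 25 from the 75th signal percentile up (3.40%). Those lower were 1 on each design (5.09%, 5.09% and 5.04%). The median of all moved to -0.037 on design B and -0.029 with the top-ranked probe set. The median moved for catalytic subunits to -0.26 (design C) and -0.30 (top-ranked). For regulatory subunits it moved to -0.072 (design B), 0.26 (design C), 0.057 (no filter), -0.069 (top-ranked), -0.024 (75th percentile) and 0.021 (no suffixed probe sets). For Pde4dip it moved to -0.11 (design B and top-ranked), 0 (no filter) and 0.013 (75th percentile). It moved for adenylate cyclases to 0.12 (design B), for guanylate cyclases to 0.20 (design A) and -0.16 (design B), and for phosphodiesterases to -0.11 (design C). At or above the 75th percentile the lists of anchors, sensors and upstream genes had medians of -0.14, -0.084 and -0.028, in alternatives added after seeing the data. Of the 184 comparisons of summary values, those of counts, spreads and ranks have no sign that could turn. The sign of a median turned in 19 comparisons. Those that stayed close to their value were catalytic subunits at 0.014 (design A, and no suffixed probe sets), adenylate cyclases at -0.038 (design C), -0.0071 (no scaling) and -0.043 (top-ranked), all members at -0.0071 (no scaling), and phosphodiesterases at 0.0018 (design A, and no suffixed probe sets) and 0.0036 (design B). The cause of the moves was not tested. No paired analysis was possible because each group had 1 array per design.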
